A study of Mus musculus with 6 samples.

Results

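The mitotic kinases, kinesins, checkpoint, kinetochore and cytokinesis genes of the postnatal mouse brain were followed here, as a set of 44 genes chosen by symbol. Each gene was read from the probeset that the platform annotation assigns to it alone, and from the brightest such probeset where there was more than 1. Of the 44 genes, 43 had such a probeset, among 19938 named genes on the array, and 42 were bright enough to be tested among 14953 genes. Ccnb1, which encodes cyclin B1, is not analysed here, and Spc24, a subunit of the NDC80 kinetochore complex, was below the limit on dim genes.

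Whole brains came from C57BL/6J pups, all male and of an inbred strain, on postnatal day 7. Ethanol pups had received 2 subcutaneous doses of 2.5 g/kg, 2 h apart, as a 20% solution in 0.15 M saline, and control pups the saline alone. Brains were taken 4 h after the first injection. Ethanol and saline pups alike were kept without their dam while the injections were given, were matched by sex and weight within litters, and were killed with CO2; each ethanol male had a littermate in a control pool. Each of the 6 arrays held a pool of RNA from 3 males of different litters, with ethanol pools on arrays 2 and 4 and saline pools on arrays 1, 3, 5 and 6. A pool averages its animals, so the spread between single pups is not seen, and in whole brain fewer dividing cells and less RNA per dividing cell cannot be told apart. Values are log2 intensities, and a log2 change is ethanol minus saline.

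Entry into mitosis is driven by CDK1 bound to its cyclins, with aurora and polo-like kinases building the spindle beside it. The spindle checkpoint holds back anaphase by restraining the ubiquitin ligase APC/C until every kinetochore is attached, and kinesins and the central spindle then part the chromosomes and the daughter cells. Most of these genes are transcribed in a wave in G2 and mitosis. In the first postnatal week the mouse brain still holds dividing cells, mainly granule cell precursors of the cerebellum, progenitors of the subventricular zone and glial precursors, so these transcripts come from a minority of its cells.

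The promoters are shown first, because 2 short elements recur in these genes whatever the array values. The CHR element, TTTGAA, is bound through LIN54 by the complexes that repress these genes in resting cells and activate them in G2, and the CCAAT box, CCAAT, is bound by NF-Y. RefSeq promoter windows of build GRCm38.p6, from 250 bases before to 50 bases after the transcription start, were matched to 37 of the 44 genes by symbol. They made 40 windows, since Bub3, Ect2 and Prc1 each had 2 that overlap. Ccna2, Cdc25c, Aurkb, Kif20a, Spc24, Incenp and Tpx2 had no entry. Below are the 120 bases before the start for 7 genes whose array values are described later, on the strand of the gene and from 5′ to 3′, with CHR and CCAAT matches on either strand in capitals.
Cdk1 (chr10:69352913-69353032, minus strand): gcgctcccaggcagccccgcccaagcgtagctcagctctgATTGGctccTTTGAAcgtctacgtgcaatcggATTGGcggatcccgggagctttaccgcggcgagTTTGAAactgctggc
Bub1 (chr2:127831860-127831979, minus strand): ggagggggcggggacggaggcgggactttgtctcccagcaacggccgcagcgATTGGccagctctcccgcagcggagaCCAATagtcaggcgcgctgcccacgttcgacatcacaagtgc
Aurka (chr2:172370571-172370690, minus strand): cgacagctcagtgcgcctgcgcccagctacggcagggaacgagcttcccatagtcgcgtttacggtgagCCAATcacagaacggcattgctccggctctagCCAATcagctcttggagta
Plk1 (chr7:122159315-122159434, plus strand): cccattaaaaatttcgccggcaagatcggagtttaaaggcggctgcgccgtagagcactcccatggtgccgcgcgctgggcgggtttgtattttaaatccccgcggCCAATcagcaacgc
Ccnb2 (chr9:70421555-70421674, minus strand): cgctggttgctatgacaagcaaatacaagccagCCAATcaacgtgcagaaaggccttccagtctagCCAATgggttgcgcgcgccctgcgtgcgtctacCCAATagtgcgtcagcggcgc
Top2a (chr11:99024190-99024309, minus strand): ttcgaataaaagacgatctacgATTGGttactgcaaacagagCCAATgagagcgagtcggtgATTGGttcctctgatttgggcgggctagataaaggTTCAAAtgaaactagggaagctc
Anln (chr9:22389207-22389326, minus strand): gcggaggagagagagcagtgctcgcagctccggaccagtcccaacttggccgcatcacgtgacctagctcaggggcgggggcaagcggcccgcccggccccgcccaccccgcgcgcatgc

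Cdk1 showed the arrangement known from cell cycle promoters, with CHR matches that begin at positions -71 and -15 and CCAAT matches at -208, -80 and -48, counted so that 1 is the first transcribed base. Aurka and Plk1 had CCAAT matches before the start (at -51 and -19, and at -14), and their CHR match begins at positions 33 and 31, after the start. Bub1 had 2 CCAAT matches, at -68 and -42, and no CHR match in its window, while Anln had CHR matches at 22 and 29 and no CCAAT match. Over all members, 31 of 40 windows (77.5%) held a CHR match on either strand, against 17.9% of all 32851 windows. A CCAAT match was also in 31 windows (77.5% against 37.4%), both motifs were in 26 (65% against 6.95%), and 2 or more CCAAT matches were in 22 (55% against 11.7%). A CHR and a CCAAT match shared a base in 1 of the 40 windows. A CHR match that begins between 60 bases before and 20 bases after the start was in 20 windows (50% against 4.43%). A match of letters is a description and does not show that a factor was bound in these brains.

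Of the 6 arrays, saline array 3 was the one apart from the rest in a principal component analysis of all tested genes, with a first component score of 13.5 where the others scored between -7.49 and 2.95 (40.9% of the variance). It was the lowest array for 36.9% of all tested genes but for 14.3% of the members. The members' results are therefore also given without it. On an array scale where receptor genes of the nose, taken as unexpressed in brain, had a median of 5.35, the 14 members described with every array ranged from 5.93 (Birc5) to 9.71 (Mki67).

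None of the 42 tested genes passed the limma test between ethanol and saline, adjusted over all tested genes, where 0.0803% of all genes (12 of 14953) passed, 0.0201% lower and 0.0602% higher. Their adjusted p ranged from 0.241 for Aurka to 0.99 for Kif4, and their log2 changes from -0.25 for Aurka to 0.13 for Anln, or from -15.9% to 9.17%. At an unadjusted p under 0.05 there were 7 members, all lower with ethanol: Aurka, Bub1, Cdk1, Ect2, Kif2c, Incenp and Bub3. That is 16.7% of the members, where 12.3% of all tested genes had such a p in either direction, 8.44% lower and 3.85% higher. With arrays centred on their median, 5 members were lower and 1 higher by that p (6% and 6.81% of all genes). With quantile normalization 7 were lower and 2 higher (6.81% and 6.89%). Bub3 and Kif2c lost this p with centred arrays, and Anln gained it. In the same 7 genes both ethanol arrays lay below all 4 saline arrays, again 16.7%, against 14.9% of all tested genes. In 2 others, Anln and Birc5, both ethanol arrays lay above all saline arrays, 4.76% against 7.68%, and in the remaining 33 the groups overlapped. The share of non-overlapping members is thus near that of the array as a whole. Without saline array 3, 12 members lay below all saline arrays and 2 above, where 23.8% of all tested genes lay below and 8.12% above, and 8 had an unadjusted p under 0.05, all lower, where 10.5% of all tested genes were lower by that p.

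The members lay below 0 more often than they lay above it, by small amounts. Their median log2 change was -0.06, against -0.02 over all tested genes, and 33 of 42 (78.6%) were below 0, against 58.6% of all genes. The split depends on how the arrays are scaled. With arrays centred on their median, 28 members lay below 0 and 14 above (66.7%, against 50.6% of all genes), and with quantile normalization 26 and 16 (61.9%, against 50.2%). It rests more on ethanol array 4 than on ethanol array 2. Without ethanol array 4, 23 members lay below 0 and 19 above (54.8%, against 58.6% of all genes), with a median of -0.03 (-0.02 over all genes). Without ethanol array 2 there were 32 and 10 (76.2%, against 55.5%), with a median of -0.09 (-0.01 over all genes). Without saline array 3 there were 35 and 7 (83.3%, against 65.7%). The log2 of the members' summed intensity was 13.42 on ethanol array 2 and 13.37 on ethanol array 4, against 13.44 to 13.48 with saline. Over all tested genes it was 23.33 and 23.35, against 23.31 to 23.37. All 42 of the 95% intervals of the log2 change lay within 0.5 of 0 in either direction, and the widest reach, that of Aurka, went to -0.42.

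**Figure D1:**
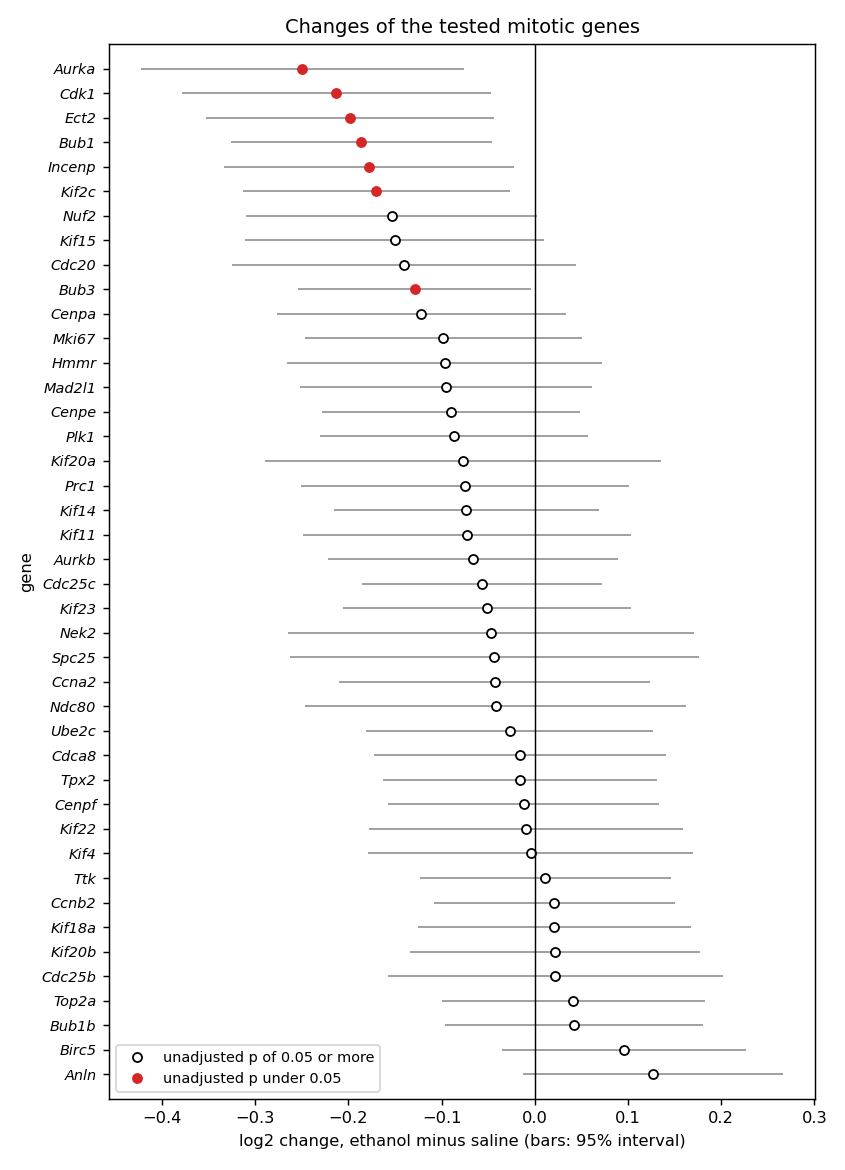
Log2 change, ethanol minus saline, of the 42 tested mitotic genes (points) with the 95% interval of the limma fit over 2 ethanol and 4 saline arrays (bars). The 7 filled points, from Aurka at -0.25 to Bub3 at -0.13, had an unadjusted p under 0.05, and none of the 42 passed after adjustment.

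Cdk1, the kinase that starts mitosis, was at 8.16 and 8.23 on ethanol arrays 2 and 4, and at 8.31, 8.31, 8.52 and 8.50 on saline arrays 1, 3, 5 and 6. Both ethanol values lay below all saline values, and saline arrays 5 and 6 were above saline arrays 1 and 3. Its log2 change was -0.21 ± 0.08 (SE), with a limma adjusted p of 0.285. The changes of Ccna2 and Ccnb2 were near 0. Ccna2, the cyclin of S phase and G2, had -0.04 ± 0.08, and Ccnb2, a B-type partner of CDK1, 0.02 ± 0.06. Cdc25b and Cdc25c encode phosphatases that switch CDK1 on. Cdc25b had 0.02 ± 0.08 and Cdc25c, which is near background, -0.06 ± 0.06. In all, 3 of the 5 tested genes of this role lay below 0 (2 with quantile normalization), and 1, Cdk1, had an unadjusted p under 0.05.

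Of the mitotic kinases, Aurka and Bub1 had an unadjusted p under 0.05. Aurka, which matures centrosomes and the spindle poles, was at 7.32 and 7.10 with ethanol and at 7.45, 7.60, 7.40 and 7.40 on saline arrays 1, 3, 5 and 6. Ethanol array 4 stood well below the rest, ethanol array 2 lay closer to the saline arrays, and saline array 3 was the highest. The log2 change was -0.25 ± 0.08 (limma adjusted p = 0.241), which became -0.36 without ethanol array 2 and -0.14 without ethanol array 4. Bub1, a checkpoint kinase that also marks centromeric chromatin, was at 8.55 and 8.42 with ethanol and at 8.61, 8.65, 8.68 and 8.74 with saline. Both ethanol values were below the saline range, and array 4 was again the lower one. Its change was -0.19 ± 0.06 (limma adjusted p = 0.270), or -0.25 without ethanol array 2 and -0.12 without ethanol array 4.

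Plk1, the polo-like kinase that acts from centrosome maturation to cytokinesis, was at 7.82 and 7.81 with ethanol and at 7.94, 7.81, 7.99 and 7.88 with saline. Its ethanol values nearly coincided and lay at the lower edge of the saline range, with a change of -0.09 ± 0.07 and a 95% interval from -0.23 to 0.06. Aurkb, the catalytic subunit of the chromosomal passenger complex, had a change of -0.07 ± 0.07. Ttk, which starts checkpoint signalling at unattached kinetochores, had 0.01 ± 0.06. Nek2, which separates centrosomes, had -0.05 ± 0.10, with its ethanol arrays at 6.28 and 6.62 on either side of the saline mean of 6.49. Of the 6 kinase genes, 5 lay below 0 (4 with quantile normalization) and 2 had an unadjusted p under 0.05.

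**Figure D2:**
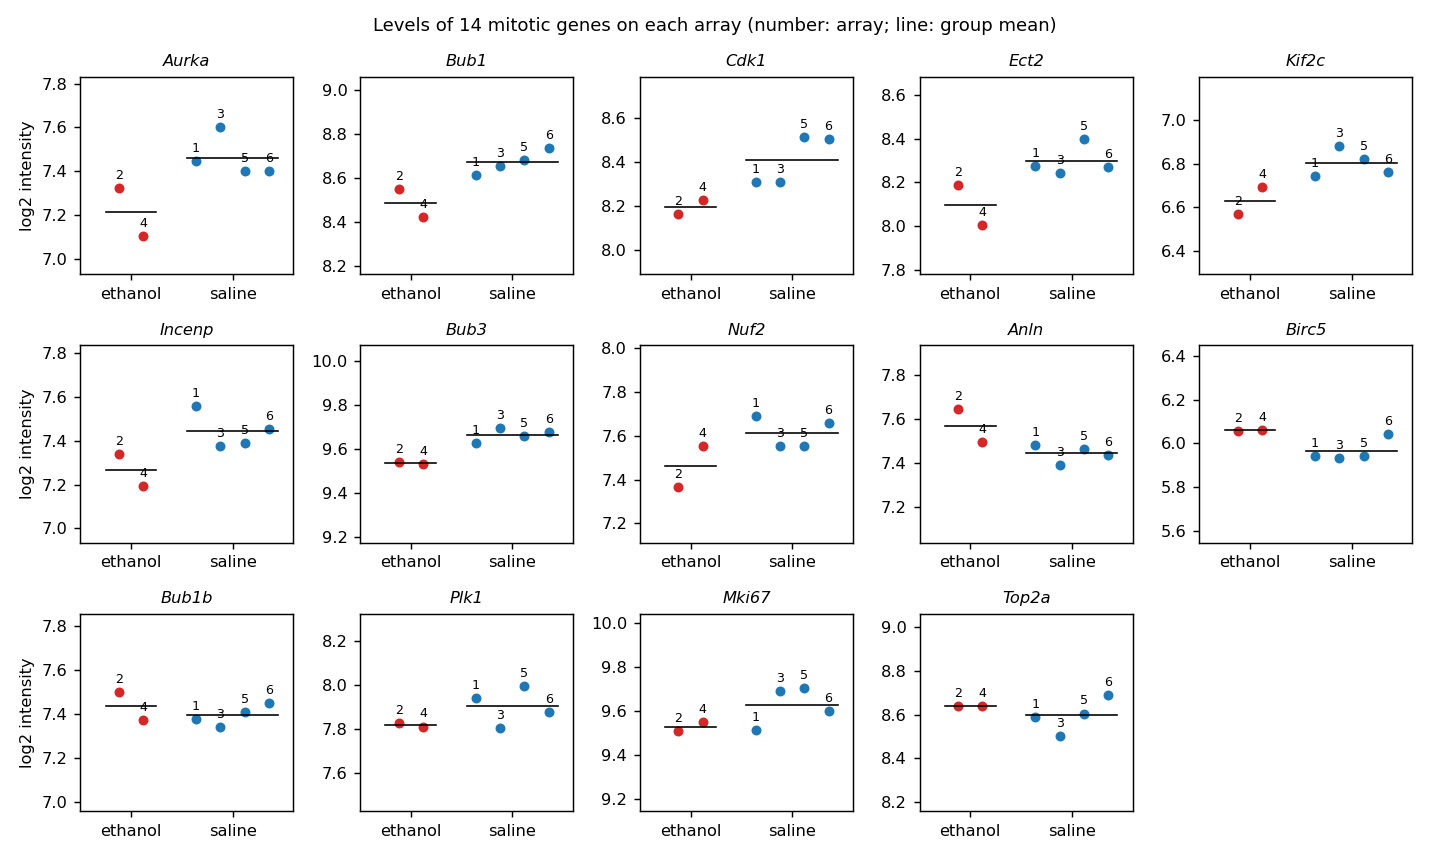
Log2 intensity of 14 mitotic genes on each array (points, with the array number above) in the ethanol and saline groups, with the group mean as a line; the panels cover equal spans of the axis. In Aurka, Bub1, Cdk1, Ect2, Kif2c, Incenp and Bub3 both ethanol points lie below all saline points, and in Anln and Birc5 above them.

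The checkpoint proteins together hold the APC/C inactive. Bub3, which brings BUB1 and BUBR1 to kinetochores, was at 9.54 and 9.53 with ethanol and at 9.63, 9.70, 9.66 and 9.68 with saline. The ethanol values were almost equal and lay below a tight saline range of 0.07. The log2 change was -0.13 ± 0.06 (limma adjusted p = 0.390). Bub1b, which encodes BUBR1, was at 7.50 and 7.37 with ethanol and at 7.38, 7.34, 7.41 and 7.45 with saline, with overlapping groups and a change of 0.04 ± 0.06. Mad2l1, the MAD2 gene, had -0.10 ± 0.07 and Cdc20, the APC/C activator that the checkpoint restrains, -0.14 ± 0.08. Ube2c, the ubiquitin-conjugating enzyme of the APC/C, had -0.03 ± 0.07. Here 4 of 5 genes lay below 0 and 1, Bub3, had an unadjusted p under 0.05, which none had with centred arrays.

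The 11 kinesin genes, Cenpe included, had a median change of -0.07, with 9 below 0 (7 with either of the other scalings) and 1 at an unadjusted p under 0.05 (0 with centred arrays). That 1 was Kif2c, a microtubule depolymerase that corrects faulty attachments at centromeres. It was at 6.57 and 6.69 with ethanol and at 6.74, 6.88, 6.82 and 6.76 with saline, so that the groups did not overlap but lay close, with ethanol array 2 the lowest. Its change was -0.17 ± 0.07 (limma adjusted p = 0.325). Kif15 and Kif11 both push spindle poles apart, and had changes of -0.15 ± 0.07 and -0.07 ± 0.08. Cenpe, which moves chromosomes to the spindle equator, had -0.09 ± 0.06. Of the kinesins of the central spindle and cytokinesis, Kif14 had -0.07 ± 0.07, Kif20a -0.08 ± 0.10 and Kif23 -0.05 ± 0.07. Kif18a, which damps chromosome movements, had 0.02 ± 0.07, and the chromosome-bound Kif22 had -0.01 ± 0.08. Kif20b at 0.02 ± 0.07 and Kif4 at -0.0044 ± 0.08 were near background, and Kif4 has a pseudogene with probesets of its own on this array, so its reading may be shared. A second probeset of Kif14, near background with a mean of 5.88, gave -0.10.

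At the kinetochore, all 5 tested genes lay below 0, though only 4 with centred arrays and 3 with quantile normalization, and none had an unadjusted p under 0.05. Nuf2, which pairs with NDC80 in the microtubule-binding rod of the kinetochore, was at 7.37 and 7.55 with ethanol and at 7.69, 7.55, 7.55 and 7.66 with saline. Ethanol array 2 stood below the other arrays and ethanol array 4 matched the lower saline arrays, for a change of -0.15 ± 0.07 (limma adjusted p = 0.412). Its partners Ndc80 and Spc25 had -0.04 ± 0.09 and -0.04 ± 0.10. Spc24, the dim gene left out of the test, was at 5.39 and 5.30 with ethanol and between 5.28 and 5.46 with saline. Cenpa, the histone variant that marks centromeres, had -0.12 ± 0.07, and Cenpf, a kinetochore protein of late G2, -0.01 ± 0.07.

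The chromosomal passenger genes were not alike, with 2 of 3 below 0 as deposited and 1 of 3 with either of the other scalings. Incenp, the scaffold that activates aurora B, was at 7.34 and 7.19 with ethanol and at 7.56, 7.37, 7.39 and 7.45 with saline. Its ethanol array 2 lay just under the lowest saline array, and the change was -0.18 ± 0.07 (limma adjusted p = 0.342). Birc5, the survivin gene, was near background at 6.06 on both ethanol arrays and at 5.94, 5.93, 5.94 and 6.04 with saline, a change of 0.10 ± 0.06 (limma adjusted p = 0.552). Saline array 6 came close to the ethanol values. Cdca8, which encodes borealin, had -0.02 ± 0.07.

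Ect2 and Anln act together in cytokinesis, where ECT2 activates RhoA and anillin organises the contractile ring. Ect2 was at 8.19 and 8.01 with ethanol and at 8.27, 8.24, 8.40 and 8.27 with saline, below the saline range on both ethanol arrays. Its change was -0.20 ± 0.07 (limma adjusted p = 0.285). Anln was at 7.64 and 7.50 with ethanol and at 7.48, 7.39, 7.46 and 7.44 with saline, above the saline range, though on array 4 only just. Its change was 0.13 ± 0.06 (limma adjusted p = 0.451), which became 0.05 without ethanol array 2 and 0.20 without ethanol array 4. Prc1, which bundles the midzone microtubules, had -0.07 ± 0.08, and the spindle genes Hmmr and Tpx2, the latter an activator of aurora A, had -0.10 ± 0.08 and -0.02 ± 0.07. In this role 4 of 5 genes lay below 0 (3 with centred arrays).

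Mki67 and Top2a are the usual markers of cycling cells. Mki67, which coats mitotic chromosomes, was at 9.51 and 9.55 with ethanol and at 9.51, 9.69, 9.71 and 9.60 with saline. The groups overlapped through saline array 1, and the change was -0.10 ± 0.07, with a 95% interval from -0.25 to 0.05. Top2a, the topoisomerase that untangles sister chromatids, was at 8.64 on both ethanol arrays and at 8.59, 8.50, 8.61 and 8.69 with saline, inside the saline range. Its change was 0.04 ± 0.06, with an interval from -0.10 to 0.18. A dimmer probeset of Top2a, near background with a mean of 6.11, gave -0.11.

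**Figure D3:**
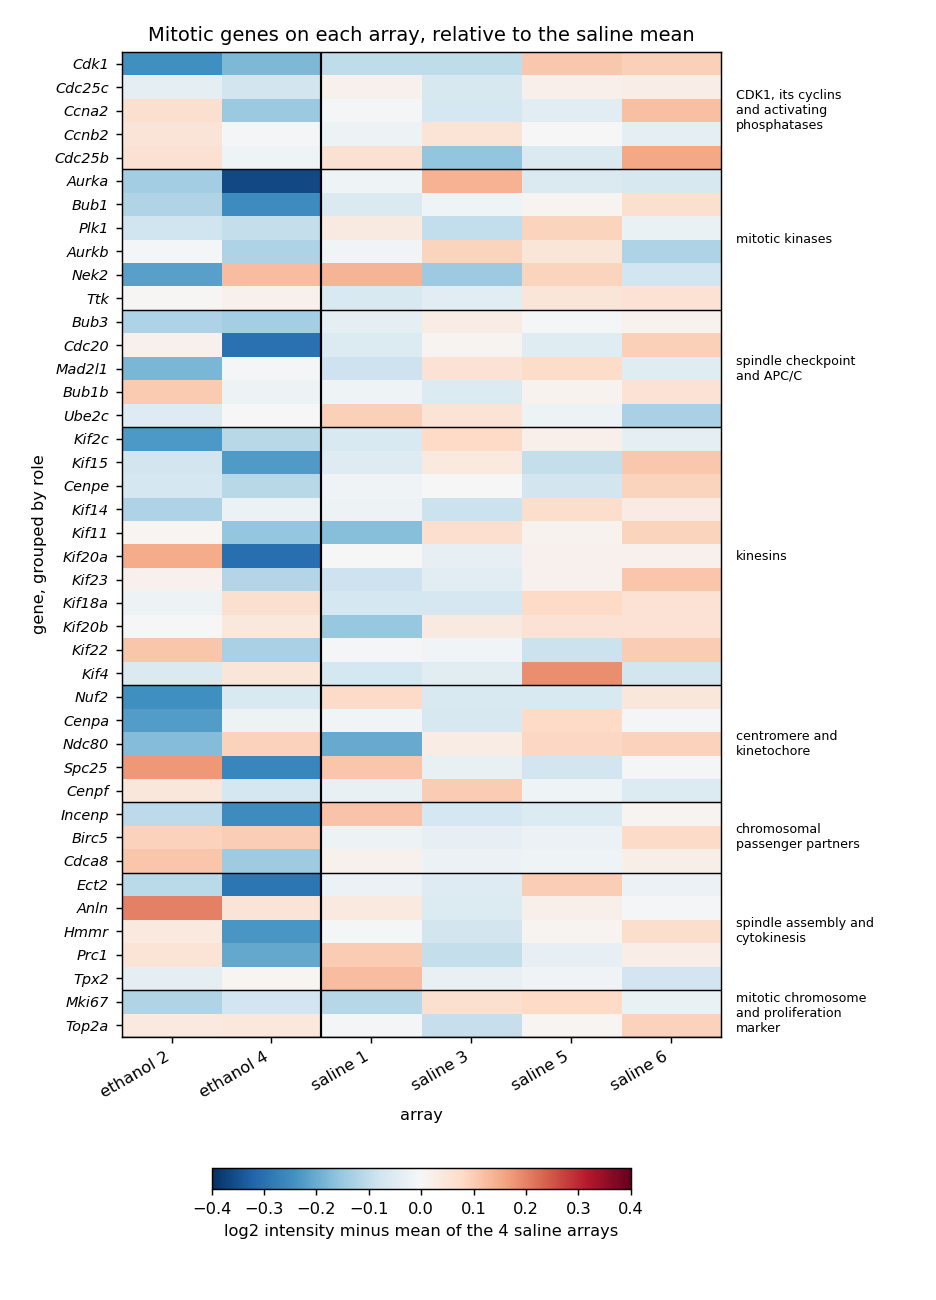
Log2 intensity of each tested mitotic gene minus its mean over the 4 saline arrays, as colour (blue below, red above), with genes as rows grouped by role and arrays as columns. Ethanol array 4 held the lowest value of the 6 arrays for 19 of the 42 genes.

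The 2 ethanol pools differed from each other in these genes. Ethanol array 4 held the lowest value of the 6 arrays for 19 of 42 members (45.2%), against 21.4% of all tested genes, and ethanol array 2 for 8 (19%, against 21%). For 17 members (40.5%) the gap between the ethanol arrays was wider than the whole saline range of that gene, against 20.9% of all tested genes. In 13 of the 17 array 4 was the lower one and in 4 array 2 was. Kif20a, the kinesin that carries aurora B to the midzone, was at 7.44 on array 2 and 6.99 on array 4, with saline arrays from 7.26 to 7.31, so 1 ethanol array lay above all saline arrays and the other below. Spc25 was likewise at 7.39 and 6.96, around saline values of 7.15 to 7.33. Cdc20 was at 7.03 and 6.71, Hmmr at 7.51 and 7.24, Prc1 at 7.62 and 7.36, and Cdca8 at 6.90 and 6.65, each with array 4 below all saline arrays. The reverse order was seen in Nek2 (6.28 and 6.62), Cenpa (7.94 and 8.14), Nuf2 and Mad2l1 (9.63 and 9.80), where array 2 was the lowest of the 6. With 1 pool on each side these gaps have no replicate check.

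**Figure D4:**
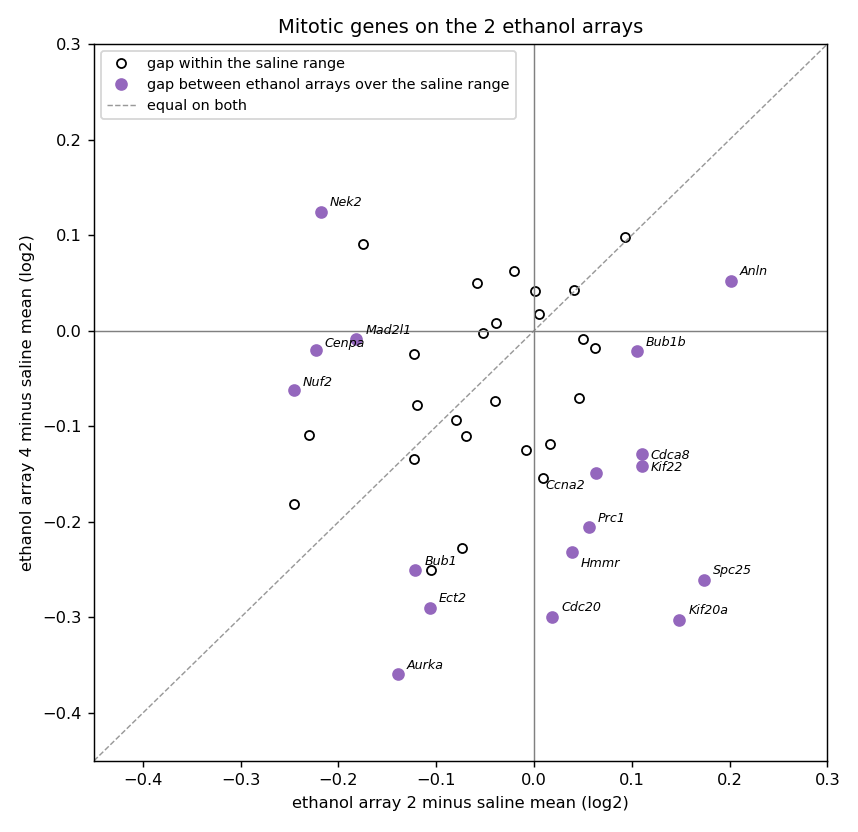
Log2 intensity minus the saline mean on ethanol array 2 (horizontal) and ethanol array 4 (vertical) for the 42 tested mitotic genes; filled points are the 17 genes whose ethanol arrays lie farther apart than the full saline range. Kif20a and Spc25 lie at the lower right, above the saline mean on array 2 and below it on array 4, and Nek2 at the upper left.

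Markers of other tissue were also low on ethanol array 4. Pituitary markers (5 tested of 9 listed) had a log2 summed level of 9.14 on ethanol array 2 and 8.34 on ethanol array 4, against 9.35 to 9.71 on the saline arrays, all 5 lay below 0 (4 with quantile normalization), and Gh, the growth hormone gene, was at background on array 4 (5.72). Erythroid markers (3 tested of 9 listed) were at 10.47 and 10.32, against 10.49 to 10.65 with saline, a sum weighted to Tfrc, the brightest of them. With each erythroid gene counted equally, as its level minus its mean over the 6 arrays, the list was at 0.01 on ethanol array 2. It was at -0.25 on ethanol array 4, and at -0.11 to 0.23 with saline, so only array 4 lay below the saline arrays. The part of this tissue content in the mitotic values was not tested. Granule cell precursor markers (10 tested) had a summed level of 12.80 on ethanol array 2 and 12.73 on ethanol array 4, against 12.78 to 12.88 with saline, with 8 of 10 below 0 (7 with either of the other scalings). The 2 with an unadjusted p under 0.05 went opposite ways: Barhl2 had -0.27 ± 0.07 and Barhl1 0.17 ± 0.07 (limma adjusted p = 0.164 and 0.380). Atoh1, the factor that defines these precursors, was at 7.11 and 6.83, and at 7.04 to 7.17 with saline. Markers of neural stem cells and subventricular progenitors (14 tested, 7 below 0) lay at 14.03 and 14.02, against 14.00 to 14.03. A summed level is weighted to the brightest genes, here Dcx and Vim. The mean over this list of each gene's level minus its mean over the 6 arrays was 0.01 and -0.05. With saline it was -0.01 to 0.03. Oligodendrocyte precursor markers (10 tested, 5 below 0) lay at 12.75 and 12.83, against 12.79 to 12.88, and Olig2, a factor of that lineage, had the smallest p of the list (-0.32 ± 0.07, limma adjusted p = 0.0827). Microglial markers (9 tested, 6 below 0) were at 11.12 and 11.10, against 11.11 to 11.21, and endothelial markers (9 tested, 6 below 0) at 11.59 and 11.66, against 11.55 to 11.68; with centred arrays 5 and 4 of them lay below 0. None of the markers of these 7 lists passed the limma test among all genes, and 11 of the 60 tested (18.3%, against 12.3% of all genes) had an unadjusted p under 0.05. Of these 11, 4 were pituitary markers, of which there were 2 with either of the other scalings.

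Other genes of cell division were read from lists of their own. Of 87 tested genes of condensin, the APC/C, the inner kinetochore and other mitotic machinery, none passed the limma test among all genes, 8 were lower and 2 were higher by unadjusted p (11.5% together, beside 12.3% of all genes). With centred arrays these were 7 and 5 and with quantile normalization 5 and 4, and the median change was -0.03 (-0.01 with centred arrays). Kpna2, an importin that binds spindle assembly factors, had -0.29 ± 0.06 (limma adjusted p = 0.0827) and Cenpq, of the inner kinetochore, 0.27 ± 0.08 (0.194). Of 42 tested genes of the G1-S transition and DNA replication, none passed and 8 had an unadjusted p under 0.05 (19%, against 12.3%), each of them lower (6 lower and 1 higher with centred arrays). In this list 32 lay below 0 (31 with quantile normalization), and the median was -0.07. They were led by Ccnd1, the cyclin D1 gene that responds to growth signals. It was at 9.76 and 9.79 with ethanol and between 10.01 and 10.14 with saline, a change of -0.30 ± 0.06 (limma adjusted p = 0.0827), and E2f8 and Rrm2 had -0.23 ± 0.07 and -0.19 ± 0.07.

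The transcription factors and repressor subunits that act on the CHR and CCAAT elements (17 tested) included none that passed. At an unadjusted p under 0.05 there were 3 (17.6%, against 12.3% of all genes), of which 2 were lower and 1 higher. Changes in this list ran from -0.20 to 0.18, with 10 below 0 and 7 above (9 and 8 with centred arrays). E2f4 and Lin9 had -0.20 ± 0.08 and -0.16 ± 0.07, and Foxm1, the activator of G2 genes, 0.06 ± 0.10. In the list of CDK inhibitors and G2 arrest genes (16 tested) 10 lay above 0, with a median of 0.07, and 4 were higher and 1 lower by unadjusted p (31.2% together, beside 12.3% of all genes). The lower one, Chek1, a checkpoint kinase of DNA damage, had -0.16 ± 0.07, and no gene of the list was lower by that p with either of the other scalings. Btg2, an antiproliferative gene, rose from a saline range of 7.79 to 7.89 to 8.44 and 8.38 with ethanol (0.57 ± 0.06, limma adjusted p = 0.00211) and was the 1 gene of these lists to pass. Gadd45b and Ccng2 had 0.21 ± 0.06 and 0.19 ± 0.07, with limma adjusted p of 0.222 and 0.327.

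**Figure D5:**
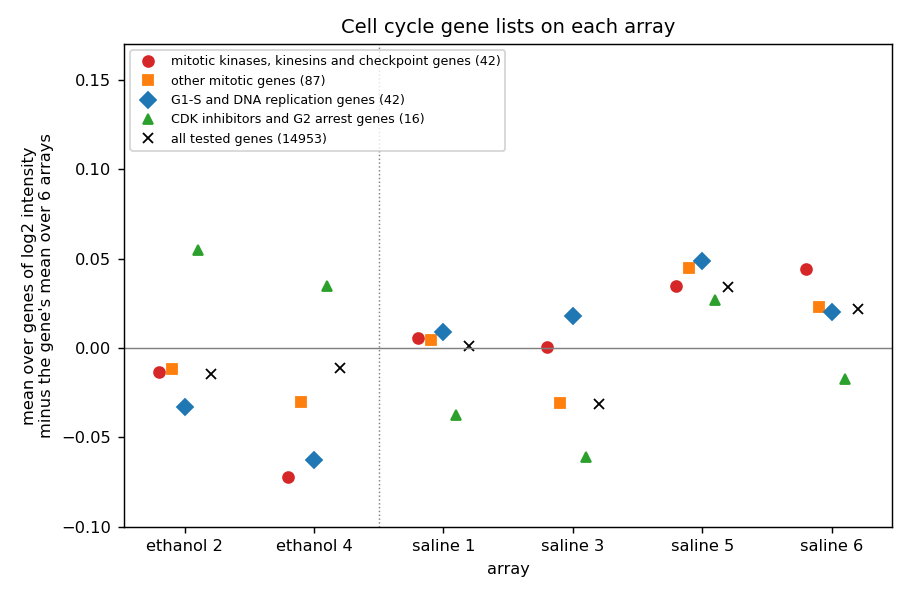
Mean over the genes of each list of the log2 intensity minus that gene's mean over the 6 arrays, by array, for the 42 mitotic genes, 3 other cell cycle lists and all 14953 tested genes. The mitotic genes lie at -0.01 on ethanol array 2, at -0.07 on ethanol array 4 and between 0.00 and 0.04 on the saline arrays, and all tested genes at -0.01 on both ethanol arrays.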

How the data were processed

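Expression was measured on 6 Affymetrix whole-transcript arrays, 2 of ethanol and 4 of saline pools, from 200 ng of pooled RNA each, per the labels' protocols. The values deposited by the authors, 1 for each probeset on each array, were taken as log2 intensities from their range (4.1 to 14.9), since the labels do not state the log base. The submitters' processing notes name Partek 6.6; how background was corrected and arrays normalized is not given in the sources used here. The values were used as deposited.

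Of 35556 probesets, 21789 had 1 gene symbol, 1621 several and 12146 none here; 21698 matched a current gene record. Each gene took its probeset with the highest mean, the dimmest 25% of genes (up to 5.55) were left out, and 14953 genes were fitted with limma 3.58.1 in R 4.3.3 (lmFit, eBayes), with treatment as the only term, two-sided, and Benjamini-Hochberg adjustment over all genes at 0.05. The fit had 4 residual and 8.1 prior degrees of freedom and was tested on simulated data. An exact permutation test of 2 against 4 arrays cannot go below 0.0667 and was not used. "Near background" means a mean under 6.2, the 95th percentile of 1207 olfactory, vomeronasal and trace-amine receptor genes; 4 tested members lay there. The number of arrays limits the precision. Replicates are pools of separate animals. Each p-value sets a change against the gene's spread between pools, moderated by the spread of all tested genes. Littermates were shared between the groups, and no litter term could be fitted. No genome coordinates of probesets were used.

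The members and lists were chosen with earlier results of these data known. Arrays are described for up to 14 members: the 8 of smallest p, the 3 largest positive changes, and Cdk1, Plk1, Ccnb1, Mki67 and Top2a; up to 4 genes of smallest p were eligible in other lists, and Atoh1 and Foxm1 were added for their role and Gh for its level. The members whose ethanol arrays lie far apart were chosen after their values were seen. Alternatives were the filter on dim genes, the mean of probesets, 2 scalings, 3 variance settings and leaving out each array.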

Additional observations from a re-analysis of the deposited data

Results flagged for a closer look

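In 4 of the 42 tested members 1 saline array lay far from the other 3, by a gap that took most of the range of the saline arrays: 0.908 of it for Cdc25c (array 3), 0.87 for Kif4 (array 5), 0.9 for Kif20b (array 1) and 0.9 for Birc5 (array 6). Chance alone gives such a gap in about 1 in 20 groups. The 4 genes are the tested members near background, and the saline range was 0.09 for Cdc25c, 0.26 for Kif4, 0.21 for Kif20b and 0.11 for Birc5 on the log2 scale.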

How the results depend on the processing

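No member passed the limma test in any of the 14 alternative fits, where the lowest adjusted p of any member ranged from 0.18 to 0.52. With 1 saline array left out at a time, 5 to 8 of the 42 members had an unadjusted p under 0.05. In these fits 9.6% to 13.8% of all tested genes had such a p. Leaving out any 1 array moved the members' median log2 change between -0.0858 (without ethanol array 2) and -0.0299 (without ethanol array 4). It also moved the count of members whose groups did not overlap from 9 to between 10 and 24. That count was 24 without ethanol array 2 (21 below and 3 above, where 28.1% and 20.2% of all genes lay so), 20 without ethanol array 4 (13 and 7, against 29.2% and 17.2%) and 14 without saline array 3 (12 and 2, against 23.8% and 8.12%); 1 array lies beyond a range more easily than 2. The count of all genes that passed was 12, and it was 10 to 16 with 1 saline array left out. It was 52 with the dimmest 50% left out, 56 with array weights and 43 with an intensity trend in the variance prior. With no variance prior it was 0, and 3 of 42 members had an unadjusted p under 0.05, where 10.3% of all tested genes did. The cause of these differences was not tested. Of 194 alternative values of the 14 members named with all arrays, 192 kept their sign and stayed short of the threshold. The others were Bub1b, between -0.0216 (without ethanol array 2) and 0.1054 (without ethanol array 4) when 1 array was left out, and Top2a, at -0.0329 with the mean of its probesets. No paired analysis was possible because the ethanol and saline groups share no replicate number.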
